A study of Mus musculus with 2 samples.

Results

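Non-cycling PD-1+ TIM-3+ CD8 T cells were the cells described here: cytotoxic T cells of liver metastases in which mRNA of both inhibitory receptors was read, with few reads of cell cycle genes. A cell counted as a member when it held at least 2 unique molecular identifiers (UMIs, each 1 counted mRNA molecule) of Cd3d, Cd3e and Cd3g together, at least 1 of Cd8a and Cd8b1 together, at least 1 of Pdcd1 (PD-1) and at least 1 of Havcr2 (TIM-3). It also had 0 UMIs of Tcf7, Cd4, Csf1r and Cd79a and fewer than 3 UMIs of Mki67, Top2a, Birc5, Pclaf and Cdk1 together. The rule found 855 members among 3692 CD8 T cells and 19999 cells that passed the quality limits, 666 in the Ctrl library and 189 in the KD library. Because these UMI counts chose the members, Pdcd1, Havcr2, Tcf7 and the cycle genes are described and not compared as findings.

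CD8 T cells that meet antigen for a long time in a tumor enter a state called exhaustion. They keep PD-1, TIM-3, LAG-3 and CTLA-4, receptors that restrain T cell receptor signaling, on the surface under the control of the transcription factor TOX. A progenitor pool that holds TCF-1, the product of Tcf7, renews itself and feeds a terminally differentiated pool without TCF-1. Terminally exhausted cells can still carry perforin and granzymes, the proteins of the killing granule, and secrete the chemokines CCL3, CCL4 and CCL5, while their output of cytokines such as interferon gamma declines.

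Both libraries were single-cell 3' RNA libraries of CD45+ cells positively selected from liver metastases of C57BL/6 mice aged 6 to 8 weeks, taken 2 weeks after intrasplenic injection of MC38-LM3b cells. MC38-LM3b is a mouse colon adenocarcinoma line selected in vivo for growth in the liver. The tumor cells carried a scramble hairpin (shScramble, Ctrl) or a hairpin against SLAMF3 (shSLAMF3, KD), whereas the T cells came from the host and carried neither. Lesions of 3 mice were pooled into 1 library per group, so there was no replicate check, and mouse, pool, library and treatment cannot be told apart. No test between groups was possible: each interval given spans 95% of the counting error alone, and UMIs of 1 cell are not independent of each other. The hairpin's target cannot be checked in host cells; Ly9, the mouse gene for SLAMF3, stood at 24.7 CPM (UMIs of the gene per 1000000 UMIs summed over the members) in Ctrl members and 25.1 in KD members (log2 ratio 0.02, interval -0.60 to 0.60).

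The Ctrl library held 67207234 UMIs in 10416 barcodes and the KD library 64444715 in 10943. The libraries shared 27 cell barcodes, and 0 barcodes were members in both. Members had a median of 6619 UMIs in Ctrl and 6168 in KD, and 2418 and 2376 detected genes. Their summed counts came to 4656526 UMIs in Ctrl and 1237289 in KD, so values in KD members rest on fewer molecules.

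Both gate genes were sparse. Pdcd1 had a median of 2 UMIs per member in either library, with a range of 1 to 12 in Ctrl and 1 to 8 in KD. Havcr2 also had a median of 2, with a range of 1 to 17 and 1 to 11. Members with a single Pdcd1 UMI made up 34.4% in Ctrl and 38.1% in KD, and those with a single Havcr2 UMI 35.4% and 38.1%. A cell with 0 UMIs of either receptor can therefore still express it, and the classes named by a minus sign below are cells in which no molecule was read.

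The label's other markers were checked against CD8 T cells with 0 UMIs of Pdcd1, Havcr2 and Tcf7 and few of the cycle genes, called PD-1- TIM-3- below. Perforin (Prf1), which forms pores in the target cell, was higher in members in both libraries. It stood at 565 CPM against 218 CPM in Ctrl (log2 ratio 1.37, interval 1.12 to 1.63) and at 426 CPM against 110 CPM in KD (1.96, 1.54 to 2.41). Ccl3, a chemokine that draws myeloid cells and T cells, was at 894 CPM in members against 322 in Ctrl (1.47, 1.27 to 1.68), but at 386 against 299 in KD (0.36, 0.09 to 0.65). Tox did not mark these cells against their neighbors. It stood at 1127 CPM in Ctrl members and 954 in KD members, close to PD-1- TIM-3- cells in Ctrl (1050) and above them in KD (704), and below PD-1+ TIM-3- cells (1241 and 1164). The label thus rests on the 2 gate receptors and on Prf1 in both libraries, on Ccl3 mainly in Ctrl, and not on a Tox level above that of the other CD8 T cells.

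Members formed a smaller share of CD8 T cells in KD than in Ctrl. Ctrl had 666 among 2605 such cells (25.6%, exact binomial interval 23.9 to 27.3%). KD had 189 among 1087 (17.4%, 15.2 to 19.8%), which put the gap at -8.18 percentage points (-10.98 to -5.27). Of all filtered cells they were 6.79% in Ctrl and 1.86% in KD, where the denominator includes every CD45+ cell type recovered. A cell needs a molecule of both receptors to enter, so the shares depend on depth. With every cell thinned to 2000 UMIs they were 12.3% and 8.11%, a difference of -4.22 points (-6.77 to -1.45). With at least 2 UMIs of each receptor they were 11.1% and 6.62%, and with 0 cycle UMIs allowed 13.5% and 10.9%.

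The other classes moved unequally. In Ctrl and KD, PD-1+ TIM-3- cells took 10.3% and 8.92% of the CD8 compartment and PD-1- TIM-3+ cells 8.37% and 8.0%, with intervals of the difference that include 0. After thinning, the difference for PD-1+ TIM-3- cells was -4.09 points (-7.17 to -0.81). PD-1- TIM-3- cells were 5.64% and 9.11%, a difference of 3.46 points (1.56 to 5.52). After thinning they were 27.7% and 31.3%, a difference of 3.58 (-0.53 to 7.78), with an interval that includes 0. Tcf7+ PD-1+ cells, the progenitor-type neighbors, were 2.46% and 3.4%, also with an interval that includes 0, but 0.58% and 2.06% after thinning, a difference of 1.48 (0.43 to 2.89). Tcf7+ PD-1- cells were 4.34% and 15.3%, a difference of 10.9 points (8.68 to 13.3). Cycling CD8 T cells were 43.3% and 37.9%, a difference of -5.44 points (-8.92 to -1.91), and of -2.88 (-6.54 to 0.96) after thinning. These shares sum to 100% within a library, so a larger share of 1 class lowers the others.

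**Figure D1:**
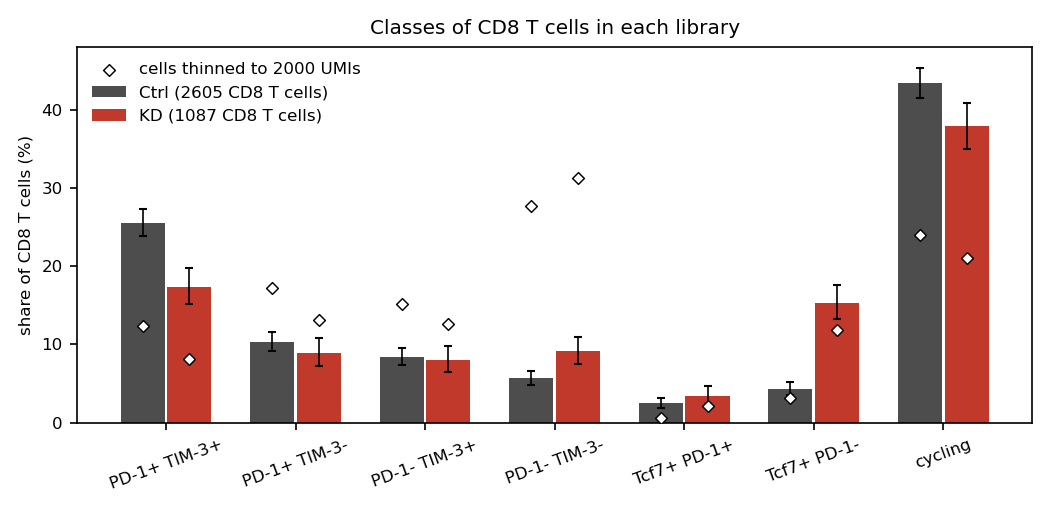
Share of CD8 T cells (%) in each of 7 classes, Ctrl in grey and KD in red. Bars are shares with exact 95% binomial intervals, and diamonds are shares after each cell was thinned to 2000 UMIs. Members (PD-1+ TIM-3+) are 25.6% in Ctrl and 17.4% in KD, and thinning lowers both while keeping their order.

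The rule's steps show where cells were lost. A Pdcd1 UMI was held by 1939 CD8 T cells of the Ctrl library and 649 of the KD library, and 1410 and 443 of these also held Havcr2. Requiring 0 Tcf7 UMIs removed few (1393 and 439 remained), and the cycle limit removed most of the rest, leaving 666 and 189. Cells just outside the rule differed from it in 1 criterion only. In Ctrl, 727 cells failed by the cycle limit alone, 268 by Havcr2, 218 by Pdcd1 and 8 by Tcf7. In KD these were 250, 97, 87 and 3 cells. Of those that failed by the cycle limit, 87 in Ctrl and 34 in KD had 3 or 4 cycle UMIs.

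Few genes were called different between members and cells that lacked a molecule of only 1 receptor. A gene is called different below when summed counts differed at least 2-fold with an interval that excludes 0, among genes with at least 100 UMIs, and between classes when this held in the same direction in both libraries. Against PD-1+ TIM-3- cells, 5 of 2922 genes were higher in members (0.171%), namely Cst3, G0s2, Havcr2, Plcl1 and Spp1, and 0 lower. Against PD-1- TIM-3+ cells, 2 of 2919 were higher (0.0685%), Pdcd1 and Spp1, and 0 lower. These genes were named after their values were seen, and Havcr2 and Pdcd1 are there by the rule. Gaps in 1 library alone are not counted. In Ctrl, Ifng was at 708 CPM in members against 308 in PD-1+ TIM-3- cells, and Ccl3 at 894 against 396. In KD these were 333 against 251 and 386 against 351. In PD-1- TIM-3+ cells of Ctrl and KD, Ifng was at 772 and 465 CPM and Ccl3 at 575 and 653.

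Against PD-1- TIM-3- cells, 13 of 2809 genes were higher in members (0.463%) and 17 lower (0.605%). Besides Prf1 and the gate genes, the higher genes included Tnfrsf4, Nrgn, Myo10 and Nrp1. Tnfrsf4 encodes OX40, a costimulatory receptor of activated T cells. It stood at 139 CPM in Ctrl members and 133 in KD members, against 60.9 and 20.1 in PD-1- TIM-3- cells (log2 1.18, 0.71 to 1.70, and 2.72, 1.76 to 3.87). Nrgn, a calmodulin-binding protein, was at 228 and 259 CPM against 99.4 and 22.3 (1.20 and 3.53). Myo10, an unconventional myosin, was at 408 and 331 CPM against 184 and 64.8 (1.15 and 2.35). Nrp1, a semaphorin and VEGF co-receptor, was at 142 and 108 CPM against 67.3 and 42.5 (1.08 and 1.35). Spp1 (osteopontin) was at 341 and 205 CPM against 104 and 8.94 (1.71 and 4.52), and macrophages of the same libraries held 142 and 188 CPM of it. Cst3, at 420 and 313 CPM against 176 and 132, stood at 1303 and 1288 CPM in macrophages. After thinning, 25.3% of Ctrl and 25.9% of KD members had a Cst3 UMI, against 20.3% and 24.3% of B cells, so its share in members was close to that in B cells.

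Among the 17 lower genes were 3 of the 7 tested progenitor and memory genes, Il7r, Lef1 and Klf2, of which Klf2 was also the 1 lower gene of 5 tested chemokine and egress receptors. Il7r, the interleukin 7 receptor that sustains memory cells, was at 29.6 CPM in Ctrl members and 42.0 in KD members, against 91.4 and 215 in PD-1- TIM-3- cells (log2 -1.62 and -2.35). Lef1, a partner of TCF-1 in naive and memory cells, was at 20.2 and 39.6 CPM against 75.4 and 313 (-1.90 and -2.98). Klf2, which drives expression of the egress receptor S1PR1, was at 55.6 and 107 CPM against 226 and 299 (-2.02 and -1.48). In each of these genes both libraries had the same direction, and KD members stood above Ctrl members.

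Against Tcf7+ PD-1+ cells, 50 of 2572 genes were higher in members (1.94%) and 31 lower (1.21%). That progenitor-type class was small, with 64 cells in Ctrl and 37 in KD. Higher in members were granule and effector genes (Gzma, Gzmb, Prf1), the tissue-homing receptor gene Cxcr6 and Entpd1, which encodes the ectoenzyme CD39. So were Ccl3, Ccl5 and Spp1, of 5 tested genes in the secreted chemokine list. That list holds Spp1, although osteopontin is not a chemokine. Gzmb, the main granzyme of activated killer cells, differed by 3.11 on the log2 scale in Ctrl (2.69 to 3.56) and 2.76 in KD (2.32 to 3.24). Entpd1 differed by 2.69 (1.88 to 3.65) and 2.23 (1.40 to 3.20). Regulators of effector differentiation were among them, with Prdm1 (Blimp-1) 2.15 and 1.96 higher, Id2 1.31 and 1.23 higher and Rbpj, the DNA-binding partner of Notch, 1.51 and 1.52 higher. Lower in members were the chemokine gene Xcl1 (-1.02 and -2.79), Il7r (-2.41 and -2.31), Satb1 (-1.05 and -1.88) and Bach2, a repressor that holds T cells in a memory-like state (-1.44 and -1.43). Slamf6, used as a surface marker of progenitor exhausted cells, had log2 ratios of -3.28 (Ctrl, -3.79 to -2.77) and -3.15 (KD, -3.82 to -2.51). Tox and Ctla4 were not among the higher genes: Tox ratios to the Tcf7+ PD-1+ class were -0.33 and -0.22, and those of Ctla4 -0.39 and 0.06.

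**Figure D2:**
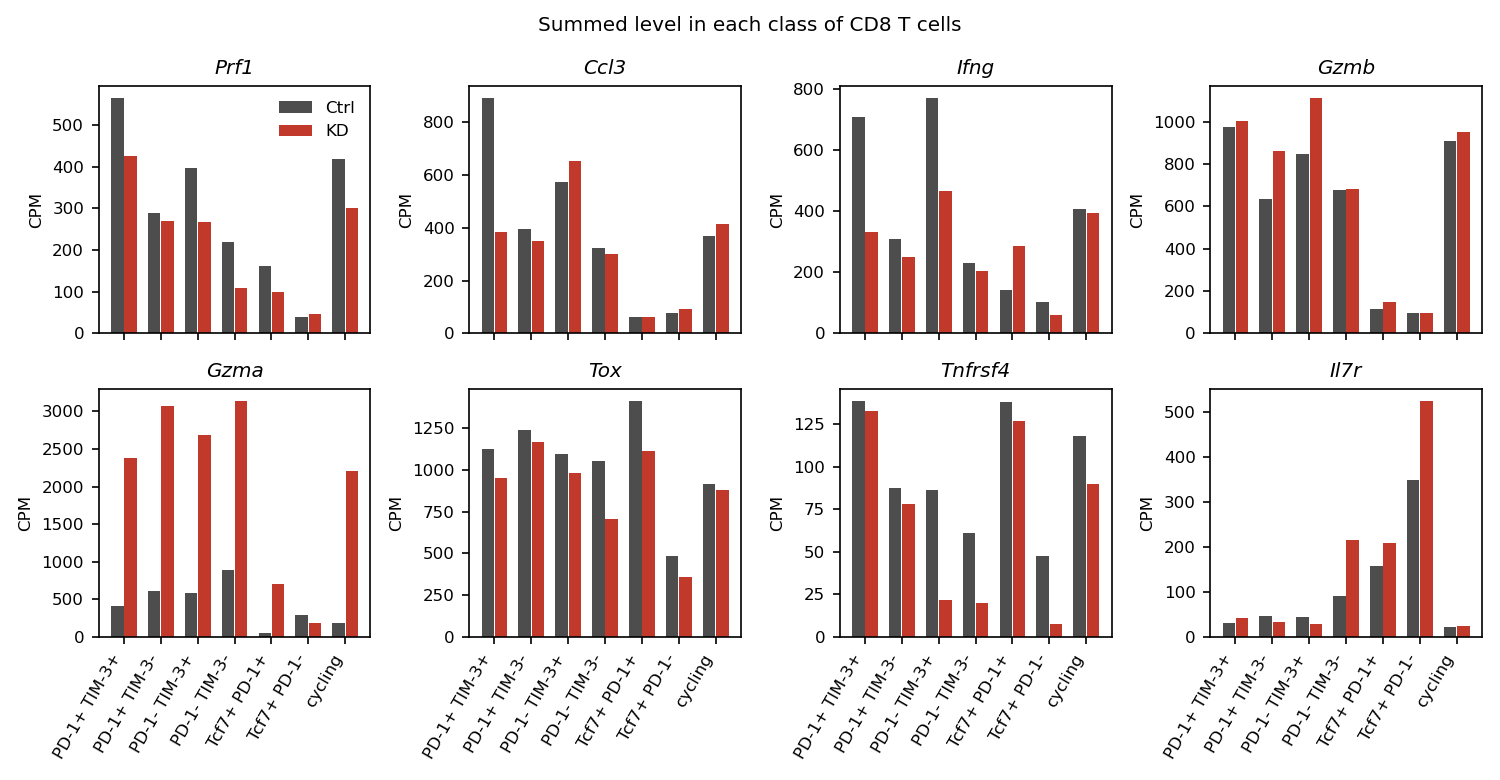
Levels in CPM of Prf1, Ccl3, Ifng, Gzmb, Gzma, Tox, Tnfrsf4 and Il7r in 7 classes of CD8 T cells, Ctrl in grey and KD in red, from UMIs summed over the cells of a class. Prf1 is 565 and 426 CPM in members against 218 and 110 CPM in PD-1- TIM-3- cells, whereas Tox is not highest in members, with 1127 and 954 CPM against 1241 and 1164 CPM in PD-1+ TIM-3- cells.

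Cycling CD8 T cells were set beside members last. Of 6555 genes, 17 were higher in members (0.259%) and 320 lower (4.88%). Of 19 genes of DNA replication and S phase, 16 were lower in members in both libraries, which the cycle limit of the rule brings with it. Prf1 was 0.43 higher on the log2 scale in Ctrl members (0.36 to 0.50) and 0.51 higher in KD members (0.36 to 0.65) than in cycling cells. Ifng and Ccl3 had unequal directions: members were above cycling cells in Ctrl (0.80 and 1.27), while in KD Ifng was below (-0.24, -0.40 to -0.09) and Ccl3 at -0.11 (-0.26 to 0.03).

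The comparison of members between KD and Ctrl asked how these cells differ between metastases of SLAMF3-knockdown and control tumor cells. Of 6411 genes with at least 100 UMIs, 20 were called higher in KD members (0.312%) and 59 lower (0.92%), and the median log2 ratio over all tested genes was -0.04. In summed counts, fewer expressing cells and less RNA per cell cannot be told apart, so the share of cells is given beside the level for the genes the account turns on.

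**Figure D3:**
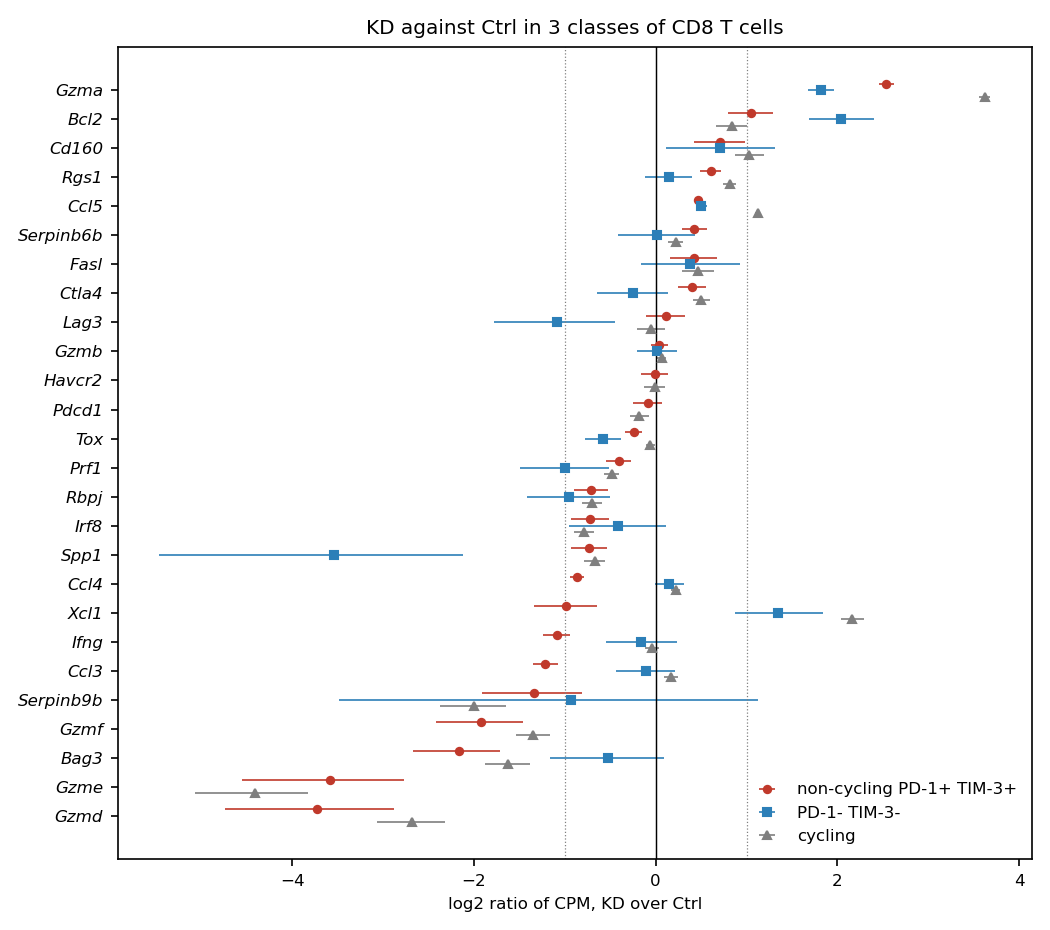
Log2 ratio of CPM, KD over Ctrl, for 26 genes in members (red circles), PD-1- TIM-3- cells (blue squares) and cycling CD8 T cells (grey triangles), with 95% counting intervals and dotted lines at 2-fold. Gzma stands at 2.54 in members, and Ifng and Ccl3 stand at -1.09 and -1.21.

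Of the 26 genes for cytotoxic granule proteins, death ligands and cytokines, 22 were tested, and their median log2 ratio was -0.18. Over all tested genes, 0.312% were called higher in KD members and 0.92% lower. In this list 7 were called lower and 1 higher. The 7 include the granzyme C to G genes, close paralogs read in few cells, so they are not 7 separate results. The higher gene was Gzma, which encodes granzyme A, a tryptase of cytotoxic granules. It had 1905 UMIs in Ctrl members (409 CPM) and 2939 in KD members (2375 CPM), a log2 ratio of 2.54 (2.45 to 2.62). A Gzma UMI was read in 143 of 666 Ctrl members (21.5%) and in 83 of 189 KD members (43.9%), with up to 103 UMIs in 1 Ctrl cell and 325 in 1 KD cell. At 2000 UMIs per cell the shares were 16.1% (13.4 to 19.2%) and 33.9% (27.2 to 41.1%), against 1.5% and 3.38% of B cells, which do not make granzyme A. The direction was shared by other populations, since Gzma was at 892 and 3135 CPM in PD-1- TIM-3- cells, at 179 and 2202 in cycling cells and at 4353 and 6767 in NK cells. In all 4 populations the KD value was the higher one. Members with Gzma also held more Ccl5, at 10940 CPM against 4066 in members without it in Ctrl and 9236 against 6054 in KD.

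Granzyme B did not follow granzyme A. Gzmb was at 977 CPM in Ctrl members and 1005 in KD members (0.04, -0.05 to 0.13), with a UMI in 88.7% and 91.5% of cells. Prf1 was 0.41 lower in KD members (-0.41, -0.55 to -0.27), with a UMI in 81.2% and 72.5% of cells, and did not reach 2-fold. The genes of other granule proteins and death ligands named next lay within 2-fold. Gzmk, a granzyme of less differentiated effector cells, stood at 108 and 123 CPM (0.18), Fasl, the ligand that triggers the death receptor Fas, at 100 and 134 (0.42), and Serpinb6b, an intracellular protease inhibitor, at 365 and 491 (0.43). Serpinb9b, of the same inhibitor family, was called lower, at 65.5 and 25.9 CPM (-1.34, -1.91 to -0.81). Tnf was at 20.2 and 11.3 CPM (-0.84).

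Called lower in KD members were also the genes of granzymes C, D, E, F and G, which lie in the mouse granzyme cluster on chromosome 14. They are close paralogs, and reads may be split or shared between them, so each single value is uncertain. Their promoters are printed because all 5 genes were called lower in KD members. The lines below give the 150 bases before the RefSeq transcription start (GRCm38.p6, minus strand, 5' to 3'), at chr14:56234658-56234807 for Gzmc, chr14:56132594-56132743 for Gzmd, chr14:56120626-56120775 for Gzme, chr14:56211408-56211557 for Gzmf and chr14:56159580-56159729 for Gzmg. Capitals mark TGTGGT, the core bound by Runx factors, and TGACGTCA, the cyclic AMP response element bound by CREB and ATF factors, each searched on both strands.
Gzmc: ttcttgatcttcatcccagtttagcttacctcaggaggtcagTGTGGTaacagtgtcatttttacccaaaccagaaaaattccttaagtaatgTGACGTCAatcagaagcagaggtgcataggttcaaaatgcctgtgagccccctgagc
Gzmd: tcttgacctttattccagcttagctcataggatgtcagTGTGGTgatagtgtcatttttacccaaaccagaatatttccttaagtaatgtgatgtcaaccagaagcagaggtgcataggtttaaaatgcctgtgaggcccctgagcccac
Gzme: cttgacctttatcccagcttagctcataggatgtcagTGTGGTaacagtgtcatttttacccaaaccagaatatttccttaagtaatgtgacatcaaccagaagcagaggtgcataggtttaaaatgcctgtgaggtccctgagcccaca
Gzmf: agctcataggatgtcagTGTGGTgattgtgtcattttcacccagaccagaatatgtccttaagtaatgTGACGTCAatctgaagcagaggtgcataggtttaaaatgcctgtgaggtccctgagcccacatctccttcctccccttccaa
Gzmg: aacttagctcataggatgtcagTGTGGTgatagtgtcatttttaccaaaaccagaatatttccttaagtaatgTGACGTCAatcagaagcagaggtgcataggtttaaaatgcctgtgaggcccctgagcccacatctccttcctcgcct
TGTGGT lay in 5 of 5 windows, with its first base 108 to 133 bases before the start, and in 2759 of 32851 windows of the same length over all genes in the table (8.40%). TGACGTCA lay in 3 of 5 (Gzmc, Gzmf and Gzmg), 57 to 82 bases before the start, and in 447 of all windows (1.36%). In the same windows of Gzma, which was higher in KD members, TGTGGT lay 50 bases before the start, and in that of Gzmb, which lay near a ratio of 0, 93 and 34 bases before it. The motif is therefore not particular to the 5 lower genes. The 10 pairs of windows were 86.7 to 97.0% identical, so the matches are not independent of each other. These are matches of letters and no binding was measured.

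Gzmc had 671 UMIs in 40 Ctrl members (144 CPM) and 1 UMI in KD members, a log2 ratio of -7.48 (-12.78 to -5.00). Gzmd had 548 UMIs in 36 Ctrl members and 11 in 3 KD members (118 and 8.89 CPM, -3.73, -4.74 to -2.88). Gzme had 542 UMIs in 48 Ctrl members and 12 in 3 KD members (116 and 9.70 CPM, -3.59, -4.55 to -2.77). Gzmf, the least unequal of the 5, had 570 UMIs in 43 Ctrl members and 40 in 9 KD members (122 and 32.3 CPM, -1.92, -2.42 to -1.46). Gzmg had 206 UMIs in 7 Ctrl members and 0 in KD, and 1 Ctrl cell held 48.1% of the Ctrl UMIs. With KD set at 3 counts it was at least 18.2-fold lower, a limit that covers counting error alone and not so few carrying cells.

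These ratios depend on which members are summed. In 1 setting, members holding at least 2 UMIs of other cell types were left out, and 296 Ctrl and 49 KD members remained. Other types here are macrophages and monocytes, B cells, neutrophils and dendritic cells, with their genes counted together. The log2 ratio of Gzmf was then -0.38, with an interval that reaches 0.16, and that of Gzme was -1.85. Gzmd was then at -2.30 and Gzmc at -5.45. With members chosen after thinning to 2000 UMIs, the 4 genes other than Gzmg had 17 to 27 UMIs in Ctrl and 0 or 1 in KD, too few to fix a size, and with 3 counts set for KD the ratios of Gzmc and Gzmd were -0.79 and -0.56. Without the 1% of members highest for the gene, Gzmf was at -1.99 and Gzmc had 89 UMIs in Ctrl and 0 in KD. For Gzmg that setting drops all 7 Ctrl members that held it, so no ratio remains.

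Few cells carried these granzymes. Any of the 5 was read in 92 of 666 Ctrl members (13.8%, 11.3 to 16.7%) and in 10 of 189 KD members (5.29%, 2.57 to 9.51%), so the share of cells differed far less than the level. At least 2 of the 5 genes were read in 43 Ctrl and 3 KD members. Together they had 2537 UMIs in Ctrl and 64 in KD, and 20 Ctrl cells with 20 or more UMIs held 91.3% of the Ctrl sum. The highest cell had 411 UMIs in Ctrl and 39 in KD. Ctrl members with any of the 5 had more Gzmb (1640 against 837 CPM) and Prf1 (823 against 511 CPM) and less Tox (770 against 1202 CPM) than Ctrl members without. In cycling CD8 T cells Gzmc was also lower in KD, at 125 and 7.20 CPM.

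Interferon gamma and the chemokine CCL3 were called lower in KD members at the mRNA level. Ifng, the cytokine that induces MHC genes and activates macrophages, had 708 CPM in Ctrl members and 333 in KD members (-1.09, -1.24 to -0.94). An Ifng UMI was read in 70.1% of Ctrl and 63.5% of KD members, and the highest cell held 263 UMIs in Ctrl and 21 in KD. At 2000 UMIs per cell, 43.4% (39.6 to 47.3%) and 34.4% (27.7 to 41.6%) had at least 1, and 5.58% and 2.12% had at least 5, against 3.01% and 0% of B cells with any. In Ctrl, the 5% of members with the most Ifng held 52.1% of its UMIs, and in KD 32.5%. The highest cells therefore weigh more in Ctrl: without the 1% of members highest for the gene (7 in Ctrl, 2 in KD), the ratio was -0.76 (-0.93 to -0.61), which no longer reached 2-fold.

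Of the 9 genes in the secreted chemokine list, which also holds Spp1, 6 were tested, 0 were called higher and 1 lower. Their median log2 ratio was -0.80. Ccl3 was the one called, with 4161 UMIs in Ctrl members and 477 in KD members (894 and 386 CPM, -1.21, -1.35 to -1.08). It was read in 58.9% of Ctrl and 45.5% of KD members. At 2000 UMIs per cell the shares were 40.1% (36.4 to 44.0%) and 25.4% (19.4 to 32.2%), against 3.76% and 2.78% of B cells. Without the top 1% of members its ratio was -0.98 (-1.14 to -0.83), just short of 2-fold. Ccl4, a chemokine closely related to Ccl3, was at 2258 and 1240 CPM (-0.87, -0.94 to -0.79), with 1135 UMIs in a single Ctrl cell, and at -0.60 without the top 1%.

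Ccl5 and Xcl1 behaved differently. Ccl5, stored by memory and effector CD8 T cells, was at 5345 CPM in Ctrl and 7385 in KD (0.47, 0.43 to 0.50) and was read in 98.6% and 99.5% of members. Xcl1, which attracts cross-presenting dendritic cells, was at 126 and 63.8 CPM (-0.99, -1.34 to -0.65). It was read in only 39 Ctrl and 17 KD members, and 1 Ctrl cell held 39.2% of the Ctrl UMIs. Without the top 1% of members the Xcl1 ratio turned to 1.13 (0.60 to 1.66), so its direction rests on a few cells.

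The ratios of members were not those of every CD8 T cell. For Ifng, the members' ratio lay below that of PD-1- TIM-3- cells by 0.93 on the log2 scale (difference -0.93, -1.35 to -0.51) and below that of cycling cells by 1.04 (-1.04, -1.21 to -0.88). For Ccl3 the differences were -1.11 (-1.46 to -0.75) and -1.38 (-1.54 to -1.22), and for Ccl4 -1.01 (-1.19 to -0.84) and -1.09 (-1.18 to -1.0). For Gzma the members' ratio lay above that of PD-1- TIM-3- cells (0.72, 0.56 to 0.89) and below that of cycling cells (-1.08, -1.19 to -0.98). With 1 library per group these differences carry counting error only and were not tested. They leave out the 2 classes nearest to members, where Ifng was also lower in KD. In Ctrl and KD it was at 772 and 465 CPM in PD-1- TIM-3+ cells and at 308 and 251 in PD-1+ TIM-3- cells. A lower Ifng level in KD was therefore not particular to members. Ccl3 was at 575 and 653 CPM in PD-1- TIM-3+ cells and at 396 and 351 in PD-1+ TIM-3- cells. The highest cells overlapped: of the 34 Ctrl members in the top 5% for Ifng, 21 were also in the top 5% for Ccl3 (61.8%), against 2 for Gzma (5.88%). In KD, where the top 5% was 10 cells, 2 of 10 were shared for Ifng and Ccl3.

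**Figure D4:**
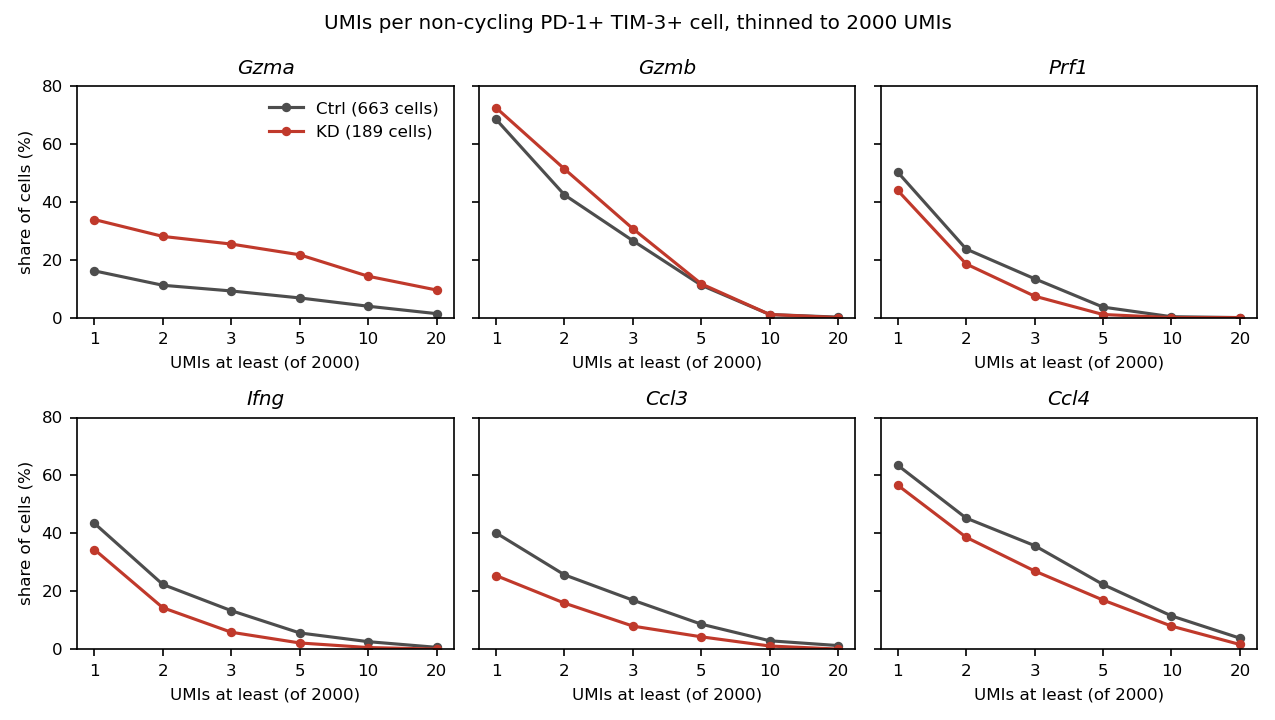
Share of members (%) with at least 1, 2, 3, 5, 10 or 20 UMIs of Gzma, Gzmb, Prf1, Ifng, Ccl3 and Ccl4 after thinning to 2000 UMIs per cell, 663 Ctrl cells in grey and 189 KD cells in red. The KD line lies above for Gzma, where 33.9% of KD and 16.1% of Ctrl members have a UMI, and below for Ifng and Ccl3.

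No tested inhibitory receptor gene reached 2-fold between the libraries. Of 16 receptor genes, 13 were tested, 0 were called in either direction, and their median log2 ratio was 0.06. Untested for too few UMIs were Btla (57 in Ctrl and 4 in KD members), Klrg1 (30 and 7) and Lilrb4a (73 and 21). Pdcd1 (364 and 342 CPM) and Havcr2 (393 and 390 CPM) are gate genes, whose likeness the rule can set. Without them the median over 11 genes was 0.11, with intervals above 0 for 3 genes and below 0 for 2. Lag3, whose product binds MHC class II, was at 171 and 185 CPM (0.11, -0.11 to 0.33), and Entpd1 at 191 and 199 (0.06). Ctla4, which competes with CD28 for B7 ligands, was at 304 and 402 CPM (0.40, 0.25 to 0.55). Cd160, a receptor for HVEM, was at 74.9 and 122 (0.70, 0.42 to 0.98), and Tigit at 65.9 and 83.2 (0.34). Vsir, which encodes VISTA, was at 87.8 and 68.7 CPM (-0.35). The 13 costimulatory receptor genes had a median of 0.02 over the 10 tested, with 0 called, among them Tnfrsf9 (4-1BB) at 545 and 550 CPM (0.01) and Cd28 at 361 and 410 (0.18).

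Of 24 transcription factor genes of exhaustion and effector function, 23 were tested, 1 was called higher and 0 lower, and their median log2 ratio was -0.21. The one called was Id3, an inhibitor of E proteins in progenitor cells, with 29 UMIs in Ctrl and 78 in KD, of which 55 lay in a single KD cell. Tox was 0.24 lower in KD members (-0.24, -0.33 to -0.15). Rbpj was at 379 and 232 CPM (-0.71, -0.90 to -0.53), with a UMI in 533 of 666 and 111 of 189 members, and Irf8 at 300 and 183 CPM (-0.72, -0.93 to -0.51). The T-box factors, which control effector genes, were also lower within 2-fold, Tbx21 (T-bet) at 126 and 86.5 CPM (-0.54) and Eomes at 132 and 93.8 (-0.49). Hif1a, the oxygen-regulated factor, was at 483 and 349 CPM (-0.47). Nr4a2, induced by T cell receptor signaling, was at 938 and 1077 CPM (0.20), and Batf (-0.08) and Id2 (-0.07) lay near the median of all genes.

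The other lists held few calls. Chemokine and egress receptors had a median of 0.56 (8 tested of 16, 0 called), with Klf2 at 0.95 (0.64 to 1.26), Ccr2 at 55.0 and 99.4 CPM (0.85) and Cxcr4, the receptor for CXCL12, at 39.9 and 71.1 CPM (0.83). Cxcr6, which places T cells near CXCL16-bearing cells, was at 332 and 317 CPM (-0.07). Of 15 progenitor and memory genes 12 were tested, with a median of 0.35 and only Id3 called, with Lef1 at 0.97, Slamf6 at 0.68 and Bach2 at -0.22. In the tissue residency list (7 tested of 12, median 0.07, 0 called), Rgs1, which blunts chemokine receptor signaling, was at 474 and 720 CPM (0.60, 0.49 to 0.72). NK-type receptors had a median of 0.32 (8 tested of 12, 0 called), the SLAM family with its adaptors 0.11 (9 of 10, 0 called) and cytokine receptors 0.08 (15 of 17, 0 called). T cell receptor signaling genes had a median of 0.04 (23 of 24, 0 called), and glycolysis and hypoxia genes -0.02 (17 of 20, 0 called). Type I interferon-stimulated genes had a median of -0.26 (7 of 18, 0 called), with Ifi27l2a at 293 and 194 (-0.59). DNA replication and S phase genes, kept low by the rule, had a median of 0.03 (15 of 19, 0 called).

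Among the called genes with the largest ratios outside the lists, Bcl2, which protects T cells from apoptosis, was higher in KD members at 84.6 and 175 CPM (1.04, 0.80 to 1.29). It was also higher in KD among PD-1- TIM-3- cells, at 144 and 592 CPM. Pkp3, a desmosomal plaque protein, was at 36.5 and 88.1 CPM (1.27, 0.91 to 1.63), the linker histone gene H1f2 at 35.4 and 82.4 (1.22), Gpr18 at 14.0 and 30.7 (1.14) and Nmnat2, an enzyme of NAD synthesis, at 21.5 and 44.5 (1.05). Selenop, the plasma selenoprotein of hepatocytes and macrophages, had 68 UMIs in either library (1.91), and 1 KD cell held 57.4% of the KD UMIs.

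Among the genes with the largest ratios in the other direction, Hspb1, a small heat shock protein, had 216 UMIs in 65 Ctrl members (46.4 CPM) and 0 in KD members, at least 19.1-fold lower when KD is set at 3 counts. Bag3, a co-chaperone of HSP70, was at 145 and 32.3 CPM (-2.17, -2.67 to -1.71), and Plau had 105 UMIs in Ctrl and 4 in KD (-2.80). Hspa1a, the inducible HSP70, was at 1200 and 389 CPM (-1.63, -1.76 to -1.49), chosen for mention after its value was seen, and was also lower in KD among PD-1- TIM-3- cells (1719 and 836 CPM) and cycling cells (1264 and 531 CPM). Col1a1 had 410 UMIs in Ctrl and 1 in KD, but 406 lay in 1 Ctrl cell, and Col3a1 (119 and 0 UMIs) and Col1a2 (104 and 1) are collagen genes of the same kind.

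Members varied among themselves. The Fano factor, the variance of a gene's UMIs over its mean, was computed in members thinned to 2000 UMIs, and its median over 2994 genes was 1.08 in Ctrl and 1.09 in KD, near the value of 1 for counting noise alone. The neutrophil genes S100a9 (34.4 and 66.3) and S100a8 (24.8 and 35.4) ranked highest over both libraries. Of T cell genes, Ccl5 (19.1 and 16.1), Gzma (13.8 and 31.2), Ccl4 (31.1 and 6.83) and Ccl3 (11.8 and 4.36) were among the top 15. Ifng stood at 9.35 in Ctrl and 2.90 in KD. The factor grows with the mean, which after thinning was 1.03 UMIs of Gzma per Ctrl member and 5.08 per KD member, so it does not rank the libraries by evenness. The top 5% of members held 72.7% of Gzma UMIs in Ctrl and 54.1% in KD. That share also depends on how many members carried a Gzma UMI, 143 of 666 in Ctrl and 83 of 189 in KD. It does not compare evenness among the carrying cells.

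Because Havcr2 chose the members, levels by its UMIs are given as a description only. Members with 1, 2 or 3, and at least 4 Havcr2 UMIs numbered 236, 273 and 157 in Ctrl and 72, 71 and 46 in KD, with limits chosen after values were seen, and their median UMIs ran from 5679 to 7751 in Ctrl and from 5087.5 to 7748 in KD. Over these steps Prf1 was at 428, 457 and 870 CPM in Ctrl and at 245, 466 and 584 in KD. Ccl3 was at 427, 722 and 1654 CPM in Ctrl and at 154, 458 and 557 in KD. Both genes were highest at 4 or more Havcr2 UMIs in each library. Ifng followed in Ctrl (452, 628 and 1105 CPM) but not in KD (360, 288 and 365). Gzmb was at 784, 805 and 1434 CPM in Ctrl and at 807, 1079 and 1135 in KD. Gzma was lowest at 4 or more, at 455, 488 and 246 CPM in Ctrl and 3390, 2308 and 1263 in KD. It fell at each step only in KD. Tox showed no order shared by both libraries, at 1199, 1107 and 1075 CPM in Ctrl and 1008, 869 and 1010 in KD. Depth moves with these steps, and its part was not tested.

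**Figure D5:**
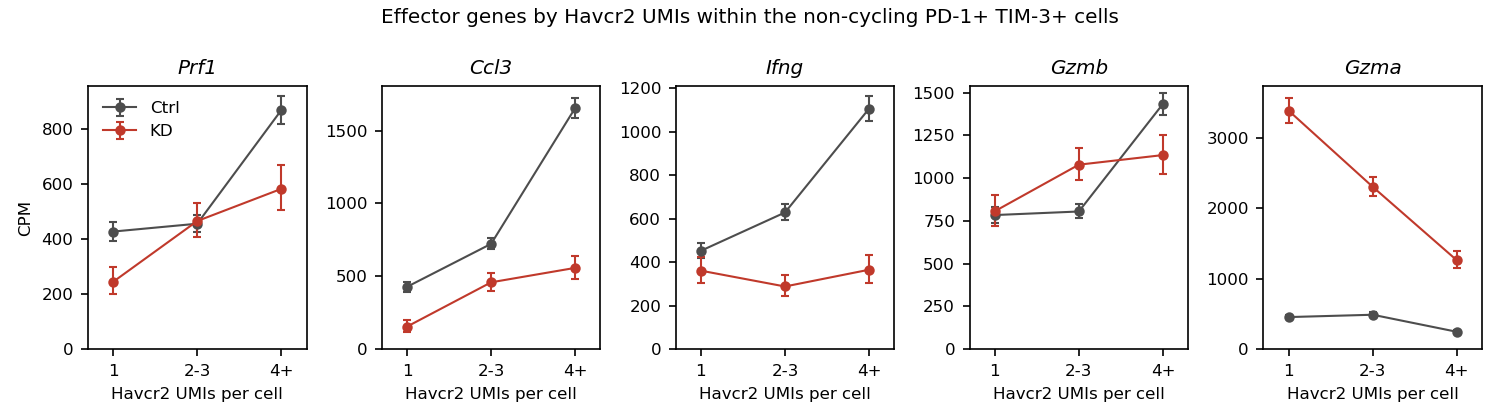
CPM of Prf1, Ccl3, Ifng, Gzmb and Gzma in members with 1, 2 or 3, and 4 or more Havcr2 UMIs, Ctrl in grey and KD in red, with exact 95% Poisson intervals. Prf1 runs from 428 to 870 CPM in Ctrl and from 245 to 584 in KD, while Gzma in KD runs from 3390 down to 1263.

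Molecules of other cell types were read in members and differed between the libraries. The 6 neutrophil genes summed to 486 CPM in Ctrl members and 2494 in KD members, with at least 1 UMI in 141 Ctrl members (21.2%) and 122 KD members (64.6%). All 3 tested neutrophil genes were called higher, S100a8 at 157 and 738 CPM (2.24), S100a9 at 294 and 1354 (2.20) and Retnlg at 19.5 and 358 (4.2). Most of these molecules lay in few cells: the 5% of members with the most S100a9 (34 in Ctrl, 10 in KD) held 97.1% and 94.5% of its UMIs, though any S100a9 was read in 11.1% and 42.9% of members. The 10 macrophage and monocyte genes summed to 327 and 356 CPM, with UMIs in 67.0% and 68.3% of members and Csf1r at 0 by the rule. Of the 5 tested, Apoe was called higher (30.7 and 77.6 CPM, 1.34) and C1qb lower (59.9 and 29.1 CPM, -1.04). B cell genes, with Cd79a at 0 by the rule, summed to 92.6 and 114 CPM, genes of gamma-delta and CD4 T cells to 58.4 and 76.8, dendritic cell genes to 8.59 and 17.0 and non-immune genes to 120 and 72.7. NK cell genes summed to 133 and 110 CPM, most of it Eomes, while Ncr1 had 1 and 0 UMIs and Klrb1c 4 and 1. At least 2 UMIs of other types were read in 370 of 666 Ctrl members (55.6%) and 140 of 189 KD members (74.1%). This count covers the macrophage and monocyte, B cell, neutrophil and dendritic cell genes together, and no NK, gamma-delta and CD4 T cell or non-immune genes. Without members that held at least 2 neutrophil UMIs the ratios were 2.27 for Gzma, -1.15 for Ifng and -1.36 for Ccl3, so all 3 stayed past 2-fold. Doublets were limited only by the ceilings on UMIs and genes and by the genes the rule bars, and no doublet caller was run.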

How the data were processed

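CD45+ cells of 2 pooled suspensions were profiled with 10x Genomics 3' v3.1 chemistry. The submitters' processing notes name Cell Ranger 7.1.0, GRCm39, Seurat 5.1.0 and R 4.4.1. The authors deposited raw UMI counts per gene and barcode for 56941 features, and no cell annotation was used here. Barcodes entered with 200 or more detected genes, and left above 10% mitochondrial UMIs, 30000 UMIs or 6000 genes. The class rule was applied to raw counts, members' UMIs were summed per library and divided by their total (CPM), and log2 ratios carry exact conditional binomial 95% intervals. Shares carry Clopper-Pearson intervals. A count of 0 was set at 3 counts as its upper limit. Thinning drew 2000 UMIs per cell without replacement and left out shallower cells. Each interval covers counting error only. The members and all 22 gene lists were chosen with earlier results of these data known. Genes were named from the lists, from up to 10 called genes of highest and 10 of lowest KD over Ctrl ratio (0.5 CPM added) and of ratio to PD-1- TIM-3- cells, and from the 15 highest Fano factors. Those ranked by ratio needed at least 0.2 times their highest level in B cells, macrophages, neutrophils or NK cells, and mitochondrial, ribosomal, receptor-segment and unnamed genes were left out. Any other gene was chosen after its value was seen. Ratios were tested on simulated data, with Poisson counts drawn per gene: of 6420 genes, 95.9% of intervals held the true value. Those counts follow the model of the interval and have no spread between cells. They cannot show how the intervals perform for genes whose UMIs lie in few cells. Promoter windows came from a RefSeq table of GRCm38.p6, a build other than the authors', and their coordinates belong to that build only. Analyses used Python 3.11.15, numpy 2.4.6, scipy 1.17.1, pandas 2.3.3 and, for TMM factors, edgeR 4.0.16. Some items are not reported here.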

Additional observations from a re-analysis of the deposited data

Results flagged for a closer look

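In 9 genes the KD over Ctrl log2 ratio of members pointed the opposite way from that of another CD8 T cell class, with both counting intervals excluding 0 and at least 1 between the ratios. Only named genes were scanned, at most 241, against PD-1- TIM-3- and cycling cells. The 9 are therefore not a count over all 6411 genes with at least 100 UMIs. With 1 library per group none of these differences was tested, and no explanation was weighed. Against cycling CD8 T cells, members had -1.21 for Ccl3 (cycling 0.17), -0.87 for Ccl4 (0.22), -1.12 for Areg (0.42), -0.43 for Cst3 (0.63) and -0.44 for H2-Aa (0.80). Against PD-1- TIM-3- cells, members had 0.23 for Bhlhe40 (PD-1- TIM-3- cells -0.83), -0.37 for Cd74 (0.79) and 0.34 for Tigit (-1.07). Xcl1 was at -0.99 in members, at 1.35 in PD-1- TIM-3- cells and at 2.16 in cycling cells, and its value in members turns to 1.13 without the 1% of members with the most Xcl1. Cst3, H2-Aa and Cd74 are also abundant in myeloid and B cells, whose molecules were read in members.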

How the results depend on the processing

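No paired analysis was possible because each group is 1 library. The main values rest on 189 KD members, and pooled mice leave the spread between animals unknown. Some settings rest on fewer KD members: 49 without cells holding other types' UMIs and 55 after thinning. With at least 2 UMIs of each receptor there were 72, and with 0 cycle UMIs 118. The difference in share, -8.18 points, was -4.43 with at least 2 UMIs of each receptor, -4.22 after thinning and -2.62 with 0 cycle UMIs, and -9.60 to -6.85 under the other settings. The 20 genes higher in KD members were 12 without cells holding other types' UMIs, 170 at a minimum of 20 UMIs, 8 at 400, 167 at 1.5-fold, 3 after thinning and 6 with at least 2 UMIs of each receptor. The 59 lower genes were 190 at 20 UMIs, 17 at 400, 254 at 1.5-fold and 15 after thinning. The 13 genes higher than in PD-1- TIM-3- cells were 8 with at least 2 UMIs of each receptor, 5 at 400 UMIs, 6 without cells holding other types' UMIs and 0 after thinning, and the 17 lower ones 1 at 400 UMIs and 1 after thinning. Fewer cells or UMIs pass a fixed minimum after thinning or a stricter rule. Over the named genes with a call, 427 of 441 alternative ratios kept their direction and 14 reversed. After thinning, Ifitm1 was -1.64, Gpr18 -1.05, S100a8 -1.64, S100a9 -0.053, Wfdc17 -0.64 and C1qb 0.36. With at least 2 UMIs of each receptor, Ifitm1 was -0.64 and Selenop -1.79. Without cells holding other types' UMIs, Ifitm1 was -0.49, Apoe -0.23, Nmnat2 -0.27 and Col1a1 1.68. Col1a1 was 0.66 with 0 cycle UMIs, and Ifitm1 -0.23 without cells holding neutrophil UMIs. No ratio was given where a gene at 0 in 1 library had too few UMIs in the other for a limit of 3 counts to fix a direction, as for Col1a2 (0 UMIs in Ctrl and 1 in KD with at most 15000 UMIs per cell) and Selenop (7 and 0 after thinning). The cause was not tested. Over all alternatives Gzma ran from 1.81 to 2.71, Ifng from -1.55 to -0.76 and Ccl3 from -1.37 to -0.98. The settings without the 1% of members highest for a gene, without members holding neutrophil UMIs, and with a total free of Rn18s-rs5 and mitochondrial genes were chosen after seeing the data.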

Other observations

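Some values in members were chosen for mention after they were seen. Of these genes, Trgc1 and Trgc2 belong to the list of gamma-delta and CD4 T cell genes, where Trgc1 was called lower and Trgc2 higher. The others belong to no list above. Trbv15, a variable segment of the T cell receptor beta chain, had 137 UMIs in Ctrl members and 2 in KD members (29.4 and 1.62 CPM). Of the gamma chain constant genes, Trgc1 was at 22.1 and 4.04 CPM and Trgc2 at 35.2 and 71.1, and paralogous segments can share reads. Ly6a, the surface protein Sca-1, was at 387 and 179 CPM (log2 -1.11), and Jun, a subunit of AP-1, at 248 and 60.6 CPM (-2.03). With no replicate library, none of these was tested.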
